A study of Mus musculus with 67 samples.

Results

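Fibrinogen, haptoglobin and 6 further secreted proteins of the acute phase were followed as mRNA in mouse liver: the fibrinogen chains Fga, Fgb and Fgg, haptoglobin (Hp), hemopexin (Hpx), ceruloplasmin (Cp), the inter-alpha-trypsin inhibitor heavy chains Itih3 and Itih4, and the pentraxins Crp and Apcs. They are the 10 genes, of 45808 gene rows in the deposited table of FPKM (reads per gene scaled to its exon length and to the depth of the library), whose symbol is one of these names, and all 10 were tested. The 67 libraries are livers of C57BL/6 mice aged 24 weeks that had been on a high-fat diet for 12 weeks, so no group was on a normal diet. Within each genotype, food was given in a time-restricted way or ad libitum, and livers were collected by zeitgeber time (ZT, hours). The liver double knockout of Rev-erb (alpha, Nr1d1, and beta, Nr1d2; ReverbLDKO) had 8 time-restricted and 8 ad libitum libraries, the knockout of both Cry1 and Cry2 (CryDKO) 8 and 8, the liver knockout of Bmal1 (Bmal1LKO) 6 and 6, and WT 11 and 12. Bmal1LKO and WT were sampled at 6 times from ZT4 to ZT24, WT with up to 2 libraries a time, and CryDKO and ReverbLDKO at 8 times from ZT3 to ZT24 with 1 library each. The labels give neither the hours of feeding, the Cre lines nor the deleted exons. They do not say whether each library is its own animal, and all p-values rest on the spread from library to library, which may be technical.

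The acute-phase response is the change in plasma proteins that the liver makes when interleukin-6, interleukin-1 and related signals reach the hepatocyte. Interleukin-6 acts through the kinase-coupled receptor chain gp130 and the transcription factor STAT3, and C/EBP and HNF1 proteins act with it at many of these promoters. Serum amyloid A is the extreme responder in the mouse, and the genes described here belong to the more moderate class, made in quantity by the resting liver as well. In the mouse, the serum amyloid P component (Apcs) is the classic acute-phase pentraxin, while Crp, the major one in humans, changes little.

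Sequenced reads recovered from the steps of the FPKM values ran from 9.10 to 36.0 M per library, so counting error is small for genes at these levels. The slope of a library's values on gene GC content, against the mean of all libraries, had a median of -0.58 log2 units per 10 points of GC in time-restricted WT (range -1.23 to 0.08) and 0.34 in ad libitum WT (-0.14 to 0.57), while the medians of the other groups lay between -0.04 and 0.15. WT contrasts are therefore also given after a correction for GC content and exon length where that changes them. The libraries WT time-restricted ZT16 and WT ad libitum ZT16, both number 2, had the largest summed FPKM of all libraries (698391 and 1097495, against a smallest sum of 386198). The deleted genes did not check the labels: Arntl (Bmal1) was at 2.00 to 7.09 FPKM in Bmal1LKO and 0.42 to 12.6 FPKM in WT, and Cry1, Cry2, Nr1d1 and Nr1d2 were detected in every library of their knockouts. The summed level of 6 hepatocyte markers was 27220 to 84714 FPKM over the libraries, with medians of 30097 and 32915 FPKM in Bmal1LKO under restriction and ad libitum, below every library of the WT groups, and its part in the Bmal1LKO results was not tested. The summed level of 7 pancreas markers was high in a few libraries, at 3408 FPKM in WT ad libitum ZT16 number 1, 1543 FPKM in CryDKO time-restricted ZT9, 1068 FPKM in WT time-restricted ZT16 number 1 and 636 FPKM in ReverbLDKO ad libitum ZT9, against group medians of 0.161 to 0.999 FPKM, and its part was not tested. In whole tissue, fewer cells of a type and less RNA per cell cannot be told apart.

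Per length of annotated exons, the 10 genes covered a wide span of abundance. That length was 9566 bases for Cp and 971 bases for Apcs, and the order of the genes depends on it. Averaged over the 67 libraries, Hpx was at 5862 FPKM, Hp was at 4095 FPKM, Fgg was at 3164 FPKM, Fga was at 2483 FPKM, Fgb was at 1817 FPKM, Itih4 was at 849 FPKM, Apcs was at 453 FPKM, Itih3 was at 443 FPKM and Crp, the lowest, was at 168 FPKM. Cp lay between Itih3 and Crp. Neighbours in that order, such as Apcs and Itih3 or Cp and Crp, overlapped in their ranges over libraries.

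A set of 4 libraries stood apart from the rest of their own groups, and they are given first because several results rest on them. The CryDKO time-restricted ZT3 library was above the other 7 libraries of its group for all 10 genes. In it Fga was at 16790.5 FPKM, against 1186 to 2348 FPKM in the others, and Hpx at 36512 FPKM, against 2696 to 7154 FPKM. Relative to the median of the group's other libraries, Apcs was 44.4-fold higher, Hpx 10.2-fold, Hp 9.93-fold, Itih4 8.63-fold and Fga 8.44-fold, and the smallest ratio was that of Cp at 4.72-fold. The ReverbLDKO time-restricted ZT18 library, set against the 6 libraries of its group other than ZT15 and itself, ranked Apcs first as well at 13.8-fold, then Hp at 7.27-fold and Hpx at 3.72-fold. The fibrinogen chains were 2.05-fold (Fgg) to 2.43-fold (Fga) higher there, and Crp was 1.30-fold the median, within the range of the others. The ZT15 library of that group had the same leading pair, Apcs at 5.77-fold and Hp at 4.02-fold, with Crp at 1.08-fold. The CryDKO ad libitum ZT21 library was milder, from 1.40-fold (Itih3) to 3.85-fold (Apcs), and it too was above the other 7 of its group for all 10 genes. Against ad libitum WT, however, it was within the range for every gene but Crp (228 FPKM, against 98.0 to 187 FPKM). Fga there was at 4344 FPKM, against 788 to 5024 FPKM, and Hp at 6609 FPKM, against 2466 to 10338 FPKM. The ReverbLDKO ZT15 library was above every time-restricted WT library for every gene but Hpx and Crp.

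Serum amyloid A1 mRNA (Saa1) moved with them: it was at 41908 FPKM in the CryDKO ZT3 library, 16119 FPKM in the ReverbLDKO ZT18 library, 9196 FPKM in the ReverbLDKO ZT15 library and 2161 FPKM in the CryDKO ad libitum ZT21 library, against medians of 81.6, 271 and 66.9 FPKM in the other libraries of the CryDKO time-restricted, ReverbLDKO time-restricted and CryDKO ad libitum groups. Outside this set, the CryDKO time-restricted ZT9 library was raised as well, with Saa1 at 3147 FPKM, Saa2 at 2661 FPKM, Apcs at 621 FPKM and Hpx at 7154 FPKM. The ZT24 library of that group had Saa1 at 608 FPKM, Apcs at 555 FPKM and Hpx at 6648 FPKM, and over its other 5 libraries Saa1 was at 46.8 to 179 FPKM and Apcs at 89.7 to 164 FPKM. As a group mean, Saa1 was lower than in WT of the same feeding in both CryDKO groups and in ad libitum ReverbLDKO. Its log2 difference from WT was -3.376 ± 0.79 in ad libitum CryDKO (limma, adjusted p = 0.00046). It was -2.66 ± 0.79 in ad libitum ReverbLDKO (limma, adjusted p = 0.0061) and -2.617 ± 0.81 in time-restricted CryDKO (limma, adjusted p = 0.0052). Its part in the ad libitum Hp and Hpx differences given below was not tested. Socs3, the feedback inhibitor induced by STAT3, differed in degree between the libraries of the set. It was at 52.6 FPKM in the CryDKO ZT3 library, 21.8-fold the median of its group's other libraries. In the ReverbLDKO ZT18 and ZT15 libraries it was at 9.03 and 8.12 FPKM, against 1.66 to 8.18 FPKM in the others of that group. In the CryDKO ad libitum ZT21 library it was at 5.28 FPKM, against 1.23 to 3.22 FPKM in the others. The summed level of 5 neutrophil markers was 69.0 FPKM in the CryDKO ZT3 library, 319 FPKM in the ReverbLDKO ZT18 library and 42.6 FPKM in the ReverbLDKO ZT15 library, with group medians of 2.68 FPKM in time-restricted CryDKO and 16.5 FPKM in time-restricted ReverbLDKO. In ad libitum CryDKO the highest sum was 6.76 FPKM, in the ZT12 library, and that of the ZT21 library lay below it. The hepatocyte marker sum was 54019 FPKM in the CryDKO ZT3 library, and it was the lowest of its group in the ReverbLDKO ZT18 library (43819 FPKM) and the highest in the ZT15 library (61225 FPKM). The part of neutrophils in these values was not tested. Calls that use these libraries are also given without the 3 time-restricted ones of the set.

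**Figure D1:**
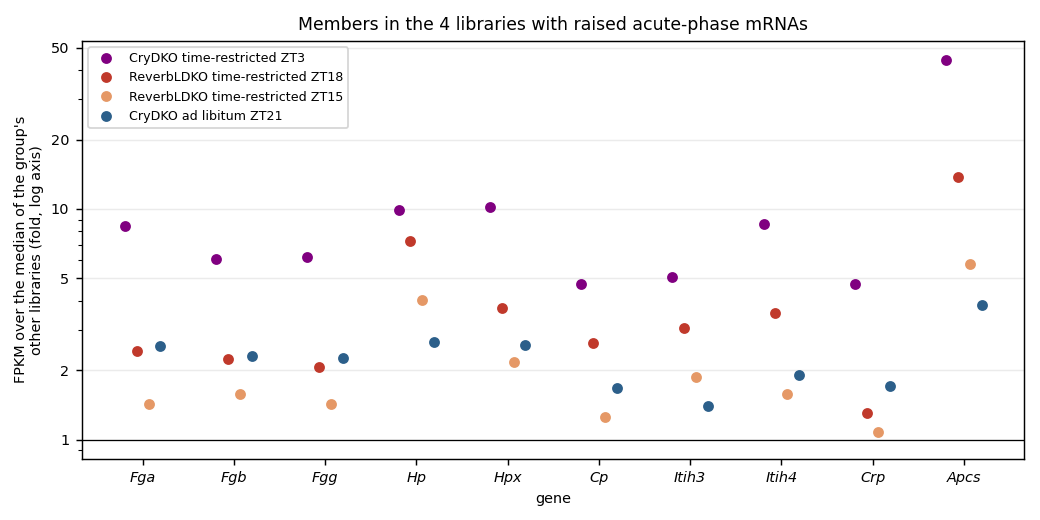
Fold of each gene in 4 libraries over the median of the other libraries of the same group (log axis, 1 point per gene and library). For the ReverbLDKO points that median is of the 6 libraries other than ZT15 and ZT18. Apcs is highest in all 4 libraries, at 44.4-fold in the CryDKO time-restricted ZT3 library, and Crp is near 1 in the ReverbLDKO libraries.

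The 3 fibrinogen chains assemble into one hexameric plasma protein, which thrombin turns into the fibrin clot. Their genes lie side by side on mouse chromosome 3 (GRCm38): Fgg at chr3:83007724-83015049 on the plus strand, Fga at chr3:83026076-83033627 on the plus strand and Fgb at chr3:83040141-83049863 on the minus strand. The 250 bases before each RefSeq start site (RefSeq, GRCm38.p6), written 5′ to 3′ on the gene's strand, are shown because the chains form 1 protein, and the Apcs stretch because Apcs had the largest fold range. Capitals mark matches on either strand to the STAT motif TTCNNNGAA, the interleukin-6 response core CTGGGA, the C/EBP motif TTGCNNAA and the HNF1 half-site GTTAAT.
Fga (chr3:83025903-83026152, plus strand): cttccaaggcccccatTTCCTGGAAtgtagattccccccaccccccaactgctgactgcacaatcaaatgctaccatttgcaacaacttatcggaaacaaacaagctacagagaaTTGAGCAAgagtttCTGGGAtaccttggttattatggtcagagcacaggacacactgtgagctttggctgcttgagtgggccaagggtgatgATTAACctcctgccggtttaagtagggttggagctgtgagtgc
Fgb (chr3:83049864-83050113, minus strand): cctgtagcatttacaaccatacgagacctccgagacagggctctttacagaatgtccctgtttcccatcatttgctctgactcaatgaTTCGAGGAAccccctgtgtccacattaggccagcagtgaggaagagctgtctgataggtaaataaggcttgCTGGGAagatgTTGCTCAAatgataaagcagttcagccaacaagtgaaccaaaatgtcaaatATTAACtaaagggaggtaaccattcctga
Fgg (chr3:83007474-83007723, plus strand): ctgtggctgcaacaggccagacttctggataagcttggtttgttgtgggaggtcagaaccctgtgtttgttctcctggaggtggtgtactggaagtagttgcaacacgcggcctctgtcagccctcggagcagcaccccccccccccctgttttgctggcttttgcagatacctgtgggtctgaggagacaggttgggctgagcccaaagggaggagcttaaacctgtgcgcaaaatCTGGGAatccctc
Apcs (chr1:172895055-172895304, minus strand): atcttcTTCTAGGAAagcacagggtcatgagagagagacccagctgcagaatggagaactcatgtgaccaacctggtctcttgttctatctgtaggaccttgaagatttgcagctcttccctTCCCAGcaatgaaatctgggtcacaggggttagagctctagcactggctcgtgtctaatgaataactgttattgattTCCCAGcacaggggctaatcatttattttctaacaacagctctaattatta

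In the full windows of 300 bases, which add 50 bases after the start, Fga and Fgb each held all 4 motifs and of these 4 Fgg held only the CTGGGA core. Over the 9 members with a window in the RefSeq table, 7 held CTGGGA, 4 the STAT motif, 4 the C/EBP motif and 3 the HNF1 half-site. Cp has overlapping windows at different starts and was counted when any of them held a motif, while the shares that follow are per window. Of all 32851 promoter windows, 31.8% held CTGGGA, 8.30% the STAT motif, 10.8% the C/EBP motif and 7.10% the half-site. The Rev-erb and ROR half-site AGGTCA was in 3 of the 9 (Fgg, Hpx and Itih4) and in 16.3% of all windows, and the clock E-box CACGTG was in 0 of the 9 and in 7.15% of all windows. The motifs do not overlap in the printed stretches, and a match is a description of letters, not of binding.

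In ReverbLDKO livers, fibrinogen mRNA was higher under restriction at every time sampled. Fga was at 2876, 2644, 2540.0, 2943, 3920.0, 6714, 2381 and 3179 FPKM at ZT3 to ZT24 in time-restricted ReverbLDKO, against 1979.9, 1898, 1709.6, 1479, 1419, 2186, 1505 and 1288 FPKM ad libitum. Every time-restricted library was above every ad libitum library. Fga rose by 0.95 ± 0.25 on the log2 scale (± SE; limma on log2(FPKM + 1), adjusted p = 0.0202) and Fgg by 0.89 ± 0.23 (limma, adjusted p = 0.0196). Fgg ranged over 2947 to 7269 FPKM (median 3774) under restriction, against 1807 to 2752 FPKM (median 2181) ad libitum, and the ranges did not overlap. Fgb differed by 0.74 ± 0.22 and did not pass (limma, adjusted p = 0.0519), and its groups, 1738 to 4382 FPKM (median 2091) restricted and 1046 to 1773 FPKM (median 1339.7) ad libitum, overlapped at 1 library. Without the 3 time-restricted libraries that stood apart, Fga was higher by 0.71 ± 0.20 (limma, adjusted p = 0.0488) and Fgg by 0.66 ± 0.20 (limma, adjusted p = 0.0735). Leaving out only the time-restricted ZT18 library gave limma adjusted p = 0.0637 for Fga and 0.0578 for Fgg, and leaving out the ad libitum ZT24 library gave 0.0625 and 0.0612. The Fga call also ended without the ad libitum ZT21 library (limma, adjusted p = 0.0502) and the Fgg call without the time-restricted ZT24 library (limma, adjusted p = 0.0509). In Bmal1LKO, Fgg was higher under restriction at 6 of 6 times and Fga and Fgb at 5 of 6, and none passed. The difference of feeding effects between genotypes did not pass for Fga, Fgb or Fgg (limma, adjusted p = 0.117, 0.26 and 0.214). It passed for Fga without the 3 libraries and for Fgb with the GC and length correction (limma, adjusted p = 0.042 and 0.0408).

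In WT the mean level of the fibrinogen chains did not pass between feedings, and a daily rhythm passed in the ad libitum group. Fga ranged over 1579 to 2620.0 FPKM (median 1895) in time-restricted WT and 788 to 5024 FPKM (median 1715) in ad libitum WT. Its log2 difference was 0.08 ± 0.21 (limma, adjusted p = 0.756). Within ad libitum WT, the ZT4 and ZT24 libraries were high (5024 and 2405 FPKM at ZT4, 3524 and 3569 FPKM at ZT24) and the ZT12 libraries low (788 and 1683 FPKM). A 24 h rhythm passed in this group for all 3 chains: the fitted amplitude (peak above the daily mean, log2) was 0.92 with a peak at ZT0.9 for Fga (limma, adjusted p = 0.00411), 0.89 at ZT1.2 for Fgb (limma, adjusted p = 0.00226) and 0.93 at ZT24.0 for Fgg (limma, adjusted p = 0.00205). Under restriction the amplitudes in WT were 0.23 for Fga, 0.27 for Fgb and 0.26 for Fgg, with limma adjusted p from 0.548 to 0.669. The difference of the rhythms between feedings did not pass for any chain (limma, adjusted p = 0.58 for Fga).

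The ratio of Fgb to Fga varied less than that of Fgg to Fga. Per length of annotated exons, Fgb was 0.76 ± 0.0728 of Fga over the 67 libraries (SD) and Fgg was 1.33 ± 0.282 of Fga. In the CryDKO time-restricted ZT3 library, where all were highest, the ratios were the lowest of the series, 0.555 for Fgb and 0.892 for Fgg. The ratio of Fgg to Fga was highest in the ZT16 number 2 libraries of WT, at 2.40 under restriction and 2.61 ad libitum, the libraries with the largest summed FPKM. The gene Gm30097 overlaps Fgg on the opposite strand and averaged 4.96 FPKM, and whether reads were counted by strand is not in the labels.

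**Figure D2:**
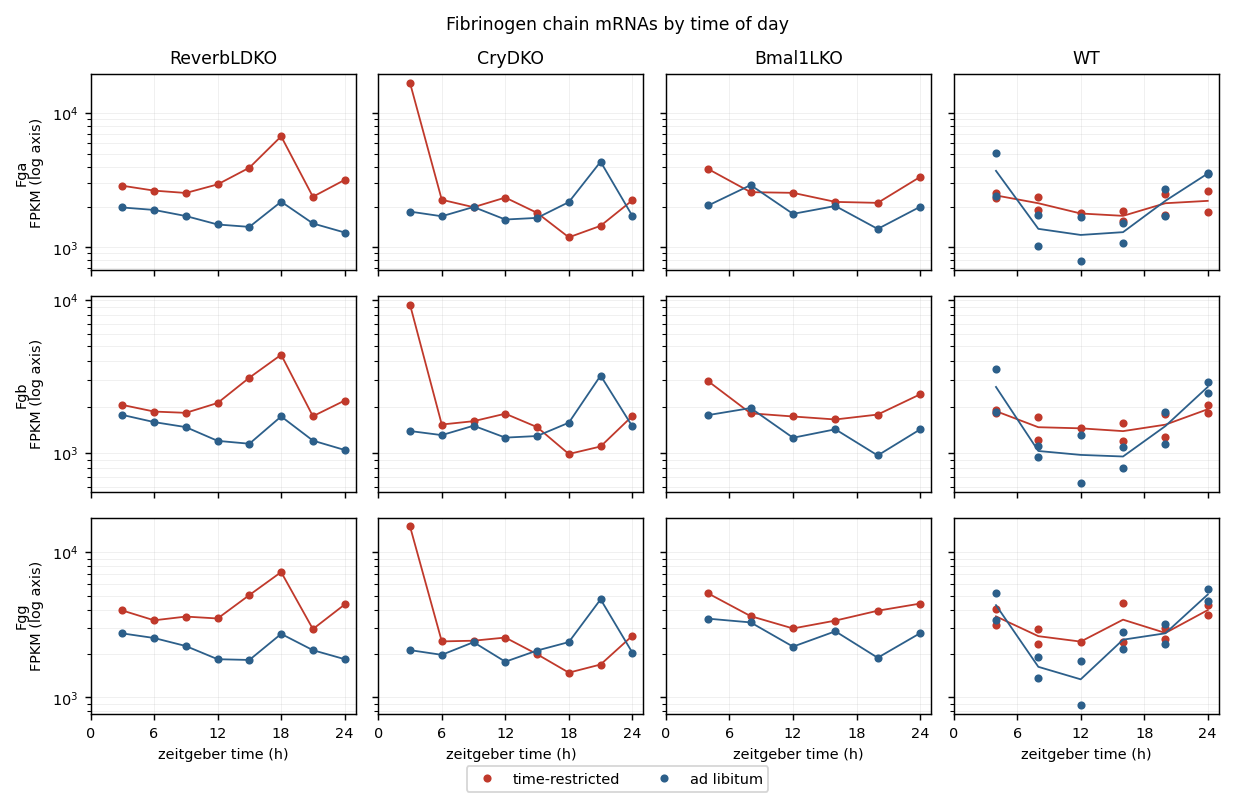
FPKM (log axis) of Fga, Fgb and Fgg against zeitgeber time in the 4 genotypes, time-restricted in red and ad libitum in blue, 1 point per library, with lines through the mean at each time. In ReverbLDKO the restricted libraries lie above the ad libitum library of the same time for every chain, and in ad libitum WT Fga spans 788 to 5024 FPKM.

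Haptoglobin binds free haemoglobin and hemopexin binds free haem in plasma. Hp (chromosome 8, chr8:109575128-109579172, minus strand) was lower in time-restricted WT than in ad libitum WT at all 6 times, by the mean at each time. It was at 590.3 to 6140.4 FPKM (median 3104) in time-restricted WT, lowest at ZT12, and 2466 to 10338 FPKM (median 5164) in ad libitum WT, and the ranges overlapped. Hp fell by 1.24 ± 0.29 on the log2 scale (limma, adjusted p = 0.000212). The GC and length correction left a difference of -0.66 ± 0.25 (limma, adjusted p = 0.0335), and leaving out each library in turn gave -1.44 to -1.02. With only the 5 restricted and 6 ad libitum WT libraries of number 1 the difference was -0.57 ± 0.41 (limma, adjusted p = 0.294), and with only the 6 and 6 of number 2 it was -1.73 ± 0.39 (limma, adjusted p = 0.000259). The 5 restricted libraries of number 1 had GC slopes of -0.42 to 0.08 and the 6 of number 2 had -1.23 to -0.58, and the part of this in the Hp difference was not tested. In the mutants the log2 difference was 0.26 ± 0.39 in Bmal1LKO, 0.37 ± 0.34 in CryDKO and 0.56 ± 0.34 in ReverbLDKO, none of which passed. The effect of feeding on Hp differed between genotypes (limma, adjusted p = 0.0015), and still did after the GC and length correction (limma, adjusted p = 0.0354).

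Under ad libitum feeding, Hp was lower in ReverbLDKO than in WT. In ad libitum ReverbLDKO it was at 1611 to 2574 FPKM (median 2067), against 2466 to 10338 FPKM (median 5164) in ad libitum WT, with the highest ReverbLDKO library above the lowest WT library. Hp fell by 1.46 ± 0.31 (limma, adjusted p = 0.000238), and by 1.11 ± 0.27 after the GC and length correction (limma, adjusted p = 0.00124). In ad libitum CryDKO it was at 2167 to 6609 FPKM (median 2510.3) and fell by 0.94 ± 0.31 (limma, adjusted p = 0.00943), a call that ended with the correction (-0.50 ± 0.27, limma, adjusted p = 0.123). With WT libraries of number 1 only, the ReverbLDKO difference was -1.33 ± 0.36 (limma, adjusted p = 0.00383) and the CryDKO difference -0.81 ± 0.36 (limma, adjusted p = 0.0579). In ad libitum Bmal1LKO the difference was -0.72 ± 0.34 (limma, adjusted p = 0.114).

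Hpx (chromosome 7, chr7:105591613-105600137, minus strand) was lower in ad libitum CryDKO and ReverbLDKO before the GC and length correction. It fell by 0.80 ± 0.27 in CryDKO (limma, adjusted p = 0.0097) and by 0.69 ± 0.27 in ReverbLDKO (limma, adjusted p = 0.0308), and the correction ended both calls (limma, adjusted p = 0.165 and 0.203). The ReverbLDKO call also ended without WT ZT4 number 1, WT ZT16 number 2, ReverbLDKO ZT12 or ReverbLDKO ZT24, all ad libitum (limma, adjusted p = 0.0514, 0.0809, 0.0551 and 0.0693). Ad libitum it was at 2552 to 7526 FPKM (median 2971) in CryDKO, 2970.0 to 4234 FPKM (median 3625) in ReverbLDKO and 2619.5 to 12522 FPKM (median 5468) in WT. The feeding effect on Hpx did not pass in WT (-0.22 ± 0.24, limma, adjusted p = 0.448). As a ratio, Hpx was 2.24 ± 0.84 times Hp in time-restricted WT and 1.08 ± 0.208 times in ad libitum WT (SD, n = 11 and 12).

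**Figure D3:**
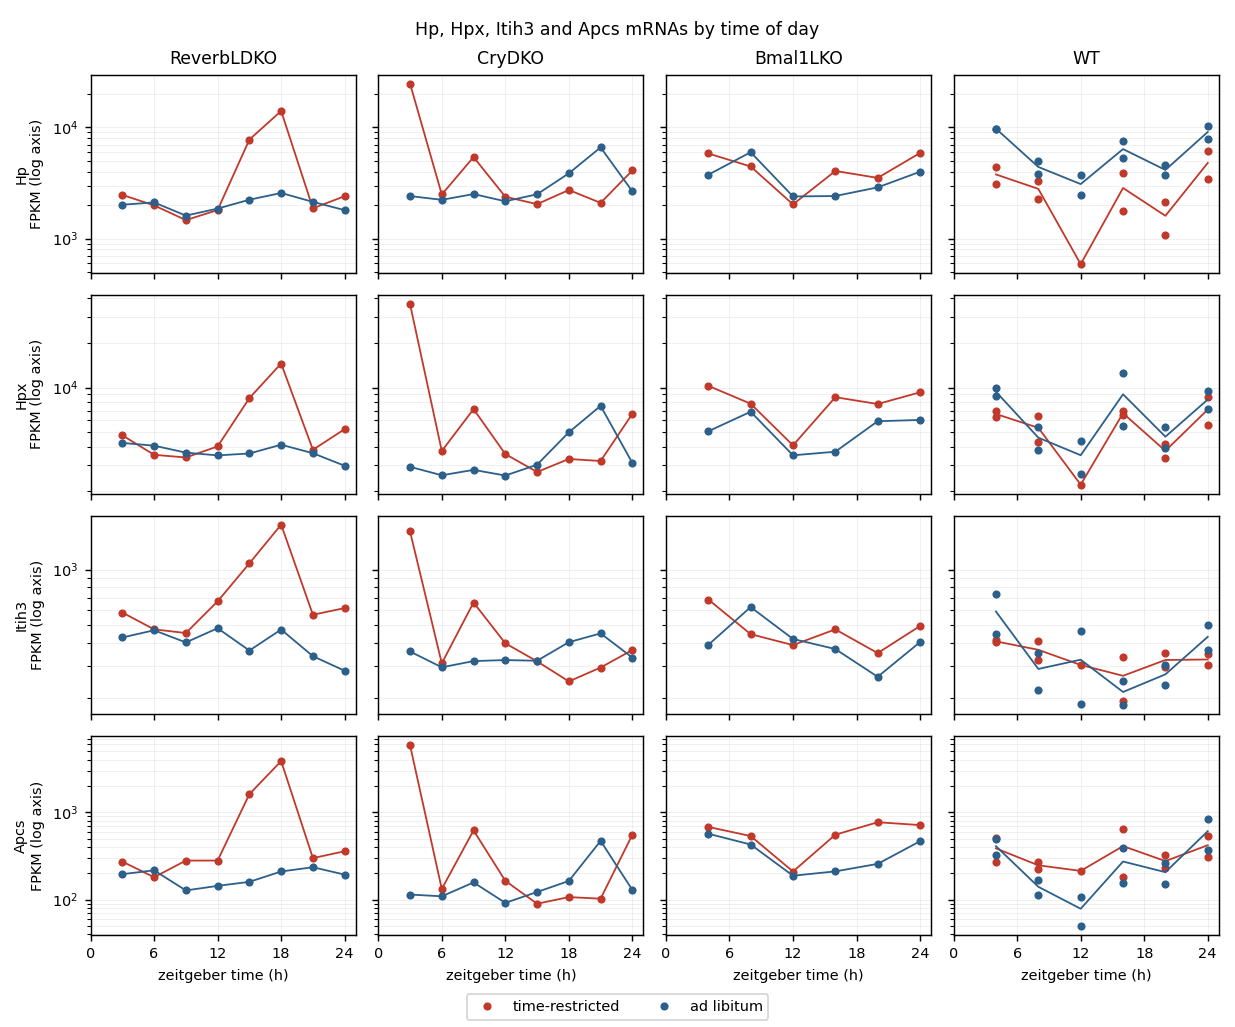
FPKM (log axis) of Hp, Hpx, Itih3 and Apcs against zeitgeber time in the 4 genotypes, time-restricted in red and ad libitum in blue, 1 point per library, with lines through the mean at each time. Hp lies lower under restriction at all 6 times in WT, the highest restricted points are ZT3 in CryDKO and ZT18 and ZT15 in ReverbLDKO, and ZT9 is the next highest in CryDKO for these 4 genes.

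Ceruloplasmin is the copper-carrying ferroxidase of plasma. Cp (chromosome 3, chr3:19957054-20009145, plus strand) was higher in ReverbLDKO under both feedings. Under restriction it was at 269 to 752 FPKM (median 290.0) in ReverbLDKO and 97.3 to 239 FPKM (median 175) in WT, with no overlap. It rose by 1.01 ± 0.19 (limma, adjusted p = 3.42e-05), and by 0.79 ± 0.18 without the 3 libraries (limma, adjusted p = 0.000764). Ad libitum it was at 162 to 242 FPKM (median 225) in ReverbLDKO and 48.9 to 268 FPKM (median 126) in WT, and rose by 0.81 ± 0.19 (limma, adjusted p = 0.000706; 0.46 ± 0.16 with the GC and length correction). Between feedings in ReverbLDKO, every restricted library was above every ad libitum library, but the difference of 0.62 ± 0.21 did not pass (limma, adjusted p = 0.0825). In Bmal1LKO, Cp was at 152 to 286 FPKM (median 189) ad libitum and rose by 0.66 ± 0.21 over WT (limma, adjusted p = 0.0166). That call ended with the correction (limma, adjusted p = 0.217) and without the ad libitum Bmal1LKO ZT8 library (limma, adjusted p = 0.0729) or ZT16 library (limma, adjusted p = 0.0571). In WT, Cp was at 97.3 to 239 FPKM (median 175) under restriction and 48.9 to 268 FPKM (median 126) ad libitum. It rose by 0.42 ± 0.17 (limma, adjusted p = 0.0325), but the correction turned the difference to -0.20 ± 0.15 (limma, adjusted p = 0.295). The call also ended without any 1 of 7 number 2 libraries (ZT4, ZT12, ZT20 and ZT24 restricted, and ZT4, ZT8 and ZT16 ad libitum), with limma adjusted p from 0.0533 to 0.0922. A 24 h rhythm of Cp passed in ad libitum WT, with an amplitude of 0.60 and a peak at ZT4.0 (limma, adjusted p = 0.0241).

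The heavy chains of the inter-alpha-trypsin inhibitor family bind hyaluronan or circulate as plasma proteins. Itih3 and Itih4 are neighbours on chromosome 14 (chr14:30908572-30923760, minus strand, and chr14:30886476-30902353, plus strand), and both were higher in time-restricted ReverbLDKO than in time-restricted WT. Itih3 was at 452 to 1756 FPKM (median 601) in ReverbLDKO and 194 to 413 FPKM (median 336) in WT, with no overlap. It rose by 1.10 ± 0.20 (limma, adjusted p = 1.46e-05), and by 0.83 ± 0.19 without the 3 libraries (limma, adjusted p = 0.000566). Itih4 was at 804 to 3612 FPKM (median 1106) in ReverbLDKO and 296 to 916 FPKM (median 642) in WT, and these ranges overlapped. It rose by 1.03 ± 0.25 (limma, adjusted p = 0.00058), and by 0.72 ± 0.23 without the 3 libraries (limma, adjusted p = 0.0106). Ad libitum, the ReverbLDKO difference from WT was 0.30 ± 0.19 for Itih3 (limma, adjusted p = 0.21) and 0.09 ± 0.24 for Itih4 (limma, adjusted p = 0.787).

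Between feedings in ReverbLDKO, Itih3 was at 452 to 1756 FPKM (median 601) under restriction and 282 to 481 FPKM (median 415) ad libitum. It rose by 0.81 ± 0.21 (limma, adjusted p = 0.0219), and without the 3 libraries the difference of 0.54 ± 0.20 did not pass (limma, adjusted p = 0.142). The call ended without any 1 of 6 libraries (ZT3 and ZT18 restricted, and ZT9, ZT15, ZT21 and ZT24 ad libitum), with limma adjusted p from 0.0505 to 0.0759. Itih4 differed by 0.72 ± 0.26 (limma, adjusted p = 0.118). In time-restricted CryDKO, Itih4 was at 537 to 5662 FPKM (median 656) and rose by 0.62 ± 0.25 over WT (limma, adjusted p = 0.0272). That call rested on the ZT3 library, without which the difference was 0.29 (limma, adjusted p = 0.24), and it also ended without the CryDKO ZT15 library (limma, adjusted p = 0.0679) or the WT ZT16 number 2 library (limma, adjusted p = 0.0756). In Bmal1LKO the ratio of Itih4 to Itih3 was low: 1.27 ± 0.234 under restriction, against 1.87 ± 0.214 in time-restricted WT, and 1.46 ± 0.27 ad libitum, against 2.25 ± 0.624 in ad libitum WT (SD, n = 6, 11, 6 and 12). This ratio was not tested.

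Crp and Apcs, pentraxins that bind damaged cells and microbes, lie close together on chromosome 1 (Crp at chr1:172698055-172833031, plus strand, and Apcs at chr1:172893961-172895041, minus strand). Apcs had the widest range of the 10 genes as a fold, its highest library being 117-fold its lowest, while Hpx had the widest range in FPKM. In time-restricted ReverbLDKO it was at 273, 180.5, 279.9, 280.1, 1615, 3863, 299 and 358 FPKM at ZT3 to ZT24, against 127 to 235 FPKM (median 195) ad libitum. The difference of 1.38 ± 0.43 did not pass (limma, adjusted p = 0.058), and without the 3 libraries it was 0.67 ± 0.38 (limma, adjusted p = 0.391). In WT, Apcs was at 183 to 637 FPKM (median 269) under restriction and 50.2 to 841 FPKM (median 214) ad libitum. Its rhythm passed in ad libitum WT, with an amplitude of 1.18 and a peak at ZT0.2 (limma, adjusted p = 0.0291).

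Crp had the narrowest range of the 10 genes as a fold, its highest library being 8.77-fold its lowest. Its only large value was in the CryDKO time-restricted ZT3 library (859.5 FPKM). In WT it was higher under restriction at all 6 times, at 146 to 305 FPKM under restriction and 98.0 to 187 FPKM (median 125) ad libitum, with overlapping ranges. It rose by 0.65 ± 0.15 (limma, adjusted p = 0.000171), but the GC and length correction brought the difference to -0.03 ± 0.15 (limma, adjusted p = 0.895). Under restriction it was at 114 to 199 FPKM (median 151) in Bmal1LKO and 111 to 213 FPKM (median 155) in ReverbLDKO. It fell against WT by 0.43 ± 0.18 in Bmal1LKO (limma, adjusted p = 0.0481) and by 0.41 ± 0.16 in ReverbLDKO (limma, adjusted p = 0.0302). With the correction these differences were -0.12 ± 0.18 and 0.01 ± 0.16 (limma, adjusted p = 0.618 and 0.963). The Bmal1LKO call ended without any 1 of the 6 Bmal1LKO libraries or of the 6 WT libraries of number 2, and the ReverbLDKO call without WT ZT4, ZT12 or ZT16 number 2 or ReverbLDKO ZT3, ZT12 or ZT21 (limma, adjusted p up to 0.101 and 0.0782). A difference of the feeding effect on Crp between genotypes did not pass with all libraries (limma, adjusted p = 0.201). It passed without the 3 libraries (limma, adjusted p = 0.00115) but not with the GC and length correction (limma, adjusted p = 0.229). The ratio of Apcs to Crp was 20.2 in the ReverbLDKO time-restricted ZT18 library and 10.2 in the ZT15 library, against 1.34 ± 0.156 in ad libitum ReverbLDKO (SD, n = 8).

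Across the feeding comparisons, 3 of 10 members passed in WT (Crp and Cp higher, Hp lower), where 64.0% of all 9958 genes tested passed, and 1 (Hp) after the GC and length correction, where 40.1% of 9581 passed. With WT libraries of number 1 only these 3 calls ended (limma, adjusted p = 0.155 for Crp, 0.964 for Cp and 0.294 for Hp), and with those of number 2 only the 3 passed. In ReverbLDKO 3 of 10 passed (Fga, Fgg and Itih3, all higher), where 3.33% of genes passed. The members' median log2 difference there was 0.73, against -0.03 over all genes tested, and 0.46 without the 3 libraries, against -0.04. Only Fga passed without these 3 (2.31% of genes). Without the CryDKO ZT3 library alone, which enters this contrast only through the spread shared by all groups, 7 passed (the 3 with Fgb, Cp, Itih4 and Apcs, 3.82% of genes). In ReverbLDKO, 0.904% of genes had every restricted library above every ad libitum library, as 3 members did (Fga, Fgg and Cp). By limma 0 members passed in Bmal1LKO and 0 in CryDKO, where 0.0402% and 0.0201% of genes passed. At an unadjusted p under 0.05 these counts were 0 and 3, where 10.2% and 5.66% of genes had one, and no other tool was run. Without the 3 libraries the counts at that threshold were 4 in Bmal1LKO and 0 in CryDKO (10.9% and 3.31% of genes). The members' median differences were 0.36 in each, against 0.03 and 0.02 over all genes, and 0.08 in CryDKO without ZT3. Hp alone passed for a difference of the feeding effect between genotypes, where 47.1% of genes passed.

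**Figure D4:**
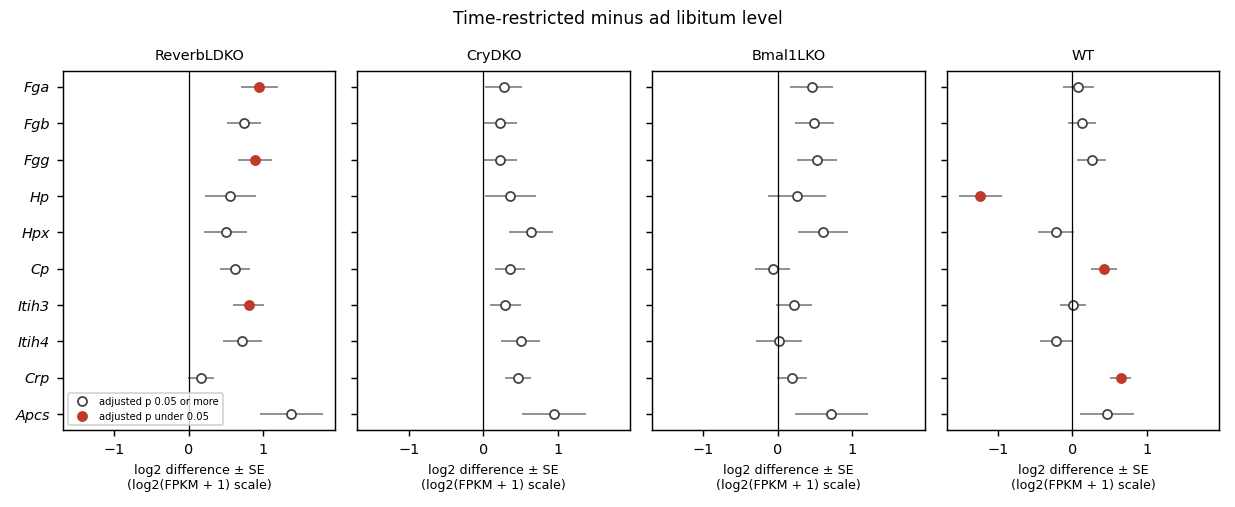
Log2 difference of each gene, time-restricted minus ad libitum, with its SE in the 4 genotypes; filled points passed at an adjusted p under 0.05 (limma). The 3 filled points in ReverbLDKO are Fga, Fgg and Itih3, and the point furthest left in WT is Hp at -1.24.

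Between genotypes, ReverbLDKO had the most calls, though not far from the share of all genes that passed. Under restriction 6 of 10 members passed against WT, 5 higher (Fga, Fgb, Cp, Itih3 and Itih4) and 1 lower (Crp), where 52.6% of genes passed, and the members' median was 0.60. After the GC and length correction 7 were higher (the 5 with Fgg and Apcs) and Crp did not pass, where 42.9% of 9581 genes passed, and the median was 0.86. Leaving out the 3 libraries, 3 were higher (Cp, Itih3 and Itih4) and Crp lower, where 41.3% of genes passed, and the median was 0.24. Fga was at 2381 to 6714 FPKM (median 2909.9) in ReverbLDKO and 1579 to 2620.0 FPKM (median 1895) in WT and rose by 0.65 ± 0.23 (limma, adjusted p = 0.0165). Fgb rose by 0.55 ± 0.21 (limma, adjusted p = 0.0257), and neither chain passed without the 3 libraries (limma, adjusted p = 0.0822 and 0.163). The ReverbLDKO ZT18 library alone ended both (limma, adjusted p = 0.0672 and 0.0888), and Fgb also did not pass without ReverbLDKO ZT3 or WT ZT8 number 2 (limma, adjusted p = 0.0551 and 0.0526). Every ReverbLDKO library was above every WT library for 2 members (Cp and Itih3), as for 2.17% of genes. Ad libitum 3 passed (Cp higher, Hp and Hpx lower), where 44.7% of genes passed, and after the correction 2 did (Cp higher, Hp lower; 43.5% of 9581 genes). With WT libraries of number 1 only, 4 of these 9 calls remained: Cp under both feedings, Itih3 under restriction and Hp ad libitum. With the WT number as a block in the fit, Fga, Fgb and Crp under restriction did not pass.

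In CryDKO 1 member passed under restriction (Itih4) and 2 ad libitum (Hp and Hpx), where 61.5% and 55.4% of genes passed. After the GC and length correction 3 were higher under restriction (Fgb, Itih4 and Crp; 49.5% of 9581 genes passed) and 0 members passed ad libitum by limma (52.7%), and 0 had an unadjusted p under 0.05, which 58.1% of genes had. That corrected fit held the time-restricted ZT3 library. Without ZT3 and uncorrected, the difference under restriction was 0.29 for Itih4 (limma, adjusted p = 0.24) and -0.27 for Crp (limma, adjusted p = 0.0167). In Bmal1LKO 1 member passed under restriction (Crp) and 1 ad libitum (Cp), where 39.1% and 24.9% of genes passed. After the correction Crp and Cp lost these calls, 3 other calls were made under restriction (Fgb, Cp and Itih3, all higher; 37.0% of 9581 genes passed) and 0 ad libitum by limma (19.4%), where 0 members and 32.9% of genes had an unadjusted p under 0.05. With the 3 libraries left out, Fgg fell by 0.49 and Crp by 0.27 in time-restricted CryDKO (limma, adjusted p = 0.0115 and 0.0164), where 60.2% of genes passed. None of the 3 is in the Bmal1LKO contrasts, whose estimates kept their values while the spread shared by all groups changed. Then Hp (0.78), Itih3 (0.51) and Apcs (0.82) also rose in time-restricted Bmal1LKO (limma, adjusted p = 0.0186, 0.0147 and 0.0425), against 0.0695, 0.0587 and 0.132 with all libraries, and 40.2% of genes passed. Ad libitum, Hp then fell in Bmal1LKO (-0.72) and Crp rose in CryDKO (0.22), at limma adjusted p = 0.0392 and 0.0365 (25.5% and 56.2% of genes). With the WT number as a block in the fit, Itih4 in time-restricted CryDKO and Crp in time-restricted Bmal1LKO did not pass. Those of the mutant contrasts that share a feeding also share their WT libraries.

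**Figure D5:**
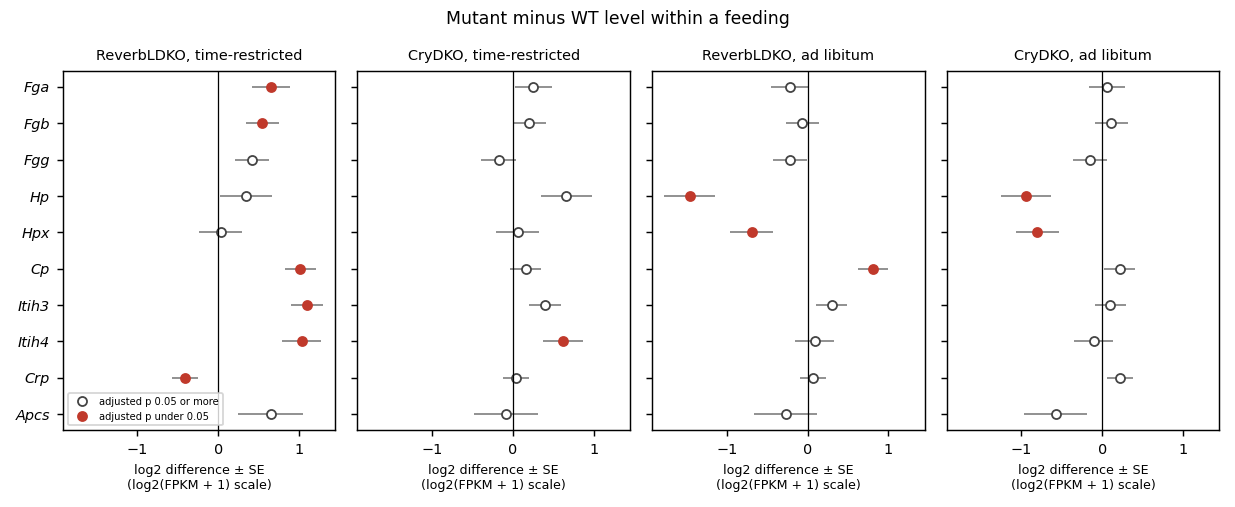
Log2 difference of each gene, mutant minus WT, with its SE, for ReverbLDKO and CryDKO under each feeding; filled points passed at an adjusted p under 0.05 (limma). Hp in ad libitum ReverbLDKO is the point furthest below 0, at -1.46, and Itih3 in time-restricted ReverbLDKO the one furthest above, at 1.10.

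A 24 h rhythm passed for 13 of 80 pairs of gene and group. Of these, 6 were in ad libitum WT (Fga, Fgb, Fgg, Cp, Itih3 and Apcs), where 29.7% of genes passed, with fitted peaks from ZT24.0 through ZT0.2 to ZT4.0. In time-restricted WT 0 members passed by limma, where 20% of genes passed (1990 of 9958), and 1 (Hp) had an unadjusted p under 0.05, as did 35.2% of genes. With the 3 libraries left out, which enter the WT fits only through the shared spread, Hp and Crp passed in time-restricted WT (limma, adjusted p = 0.0298 and 0.00916; 20.9% of genes), and Itih4 and Crp were added in ad libitum WT (limma, adjusted p = 0.0294 and 0.00315; 30.3% of genes). In time-restricted CryDKO 6 passed (Fga, Fgb, Fgg, Hpx, Itih4 and Apcs), where 7.23% of genes passed, and all 6 calls ended without the ZT3 library. With the GC and length correction 9 passed there, all but Crp (15.4% of 9581 genes), in a fit that held the ZT3 library. In time-restricted ReverbLDKO 1 passed, Apcs, with a peak at ZT17.2 (limma, adjusted p = 0.0486), where 3.95% of genes passed, and it did not without the 3 libraries. The other 4 groups had 0 calls among the members by limma: 0.512% of genes passed in time-restricted Bmal1LKO, 0.0301% in ad libitum Bmal1LKO, 0.0502% in ad libitum CryDKO and 0.0301% in ad libitum ReverbLDKO. In these 4 groups 0 members had an unadjusted p under 0.05, as 9.65%, 5.33%, 2.92% and 1.70% of genes did in the same order. In ad libitum ReverbLDKO the members' median amplitude was 0.15, against 0.62 in ad libitum WT and 0.10 and 0.26 over all genes in the same groups. A difference of rhythm between feedings passed for 0 of 40 pairs by limma, where 0% of genes passed in WT, Bmal1LKO and ReverbLDKO and 1.31% in CryDKO. At an unadjusted p under 0.05 there were 9 in CryDKO, 2 in ReverbLDKO, 0 in Bmal1LKO and 0 in WT, where 12.0%, 2.81%, 1.02% and 8.86% of genes had one. Without the CryDKO ZT3 library there were 3 in CryDKO (Fga, Fgb and Hpx; 8.02% of genes) and 5 in WT (the fibrinogen chains, Cp and Crp; 9.44%).

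Genes that work with these proteins were counted in 7 lists of 80 tested genes. With restriction in ReverbLDKO, the clotting and fibrinolysis partners of fibrinogen had these counts: 5 rose and 0 fell of 13 tested (median log2 difference 0.37), among them F11, clotting factor XI, by 0.80 ± 0.13 (adjusted p = 8.91e-05) and Cpb2, which slows clot lysis, by 0.71 ± 0.16 (adjusted p = 0.00526), both by limma. Over all genes the median there was -0.03. In the same contrast 2 rose and 0 fell of 22 tested (median log2 difference 0.49) among other positive acute-phase genes, with Orm1, orosomucoid, higher by 1.40 ± 0.37 (adjusted p = 0.0219) by limma. Of the signalling list 1 rose and 0 fell of 11 tested (median log2 difference 0.08), and the gene that rose was Socs3. Of the inter-alpha-trypsin inhibitor partners 1 rose and 0 fell of 4 tested (median log2 difference 0.47), the one being Itih2. In the lists of liver transcription factors, negative acute-phase genes and haemoglobin, haem and iron genes, 0 passed of 9, 11 and 10 by limma (1, 5 and 1 at an unadjusted p under 0.05, which 17.1% of genes had). Over the 7 lists 9 of 80 passed (11.2%), where 3.33% of all genes did. Without the 3 libraries 1 of the 80 passed, F11, by 0.78 ± 0.15 (limma, adjusted p = 0.00184). The differences were then 0.44 ± 0.13 for Cpb2 (adjusted p = 0.0555), 0.89 ± 0.35 for Orm1 (adjusted p = 0.186), 0.51 ± 0.26 for Socs3 (adjusted p = 0.331) and 0.58 ± 0.18 for Itih2 (adjusted p = 0.0803), all by limma, and the median of the other positive acute-phase genes was -0.03.

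Against WT under restriction, ReverbLDKO had these counts in the clotting list: 9 rose and 1 fell of 13 tested (median log2 difference 0.50), with F12, clotting factor XII, higher by 1.40 ± 0.14 (adjusted p = 3.89e-11) by limma. Of the inter-alpha-trypsin inhibitor partners 3 rose and 0 fell of 4 tested (median log2 difference 0.54), and Itih1, which lies beside Itih3, was higher by 1.03 ± 0.12 (adjusted p = 1.24e-09) by limma. Of the signalling list 4 rose and 1 fell of 11 tested (median log2 difference 0.19), of the liver transcription factors 5 rose and 1 fell of 9 tested (median log2 difference 0.65), of the other positive acute-phase genes 6 rose and 3 fell of 22 tested (median log2 difference -0.04), of the negative acute-phase genes 5 rose and 0 fell of 11 tested (median log2 difference 0.10), and of the haemoglobin, haem and iron list 4 rose and 1 fell of 10 tested (median log2 difference 0.21). The median over all genes was 0.02. Over the 7 lists 36 rose and 7 fell of 80 (53.8%), where 52.6% of all genes passed, 37 rose and 4 fell with the GC and length correction (42.9% of 9581 genes), and 29 rose and 11 fell without the 3 libraries (41.3% of genes). With the correction, 3 rose and 1 fell with a median of 0.30 among the liver transcription factors and 6 rose and 1 fell with a median of 0.33 among the other positive acute-phase genes. Among the same genes without the 3 libraries 3 rose and 8 fell with a median of -0.47.

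With restriction in WT, Cebpd, a C/EBP factor induced by STAT3, fell by 2.42 ± 0.16 (limma, adjusted p = 1.56e-17), and after the GC and length correction the difference was -2.46. Over the 7 lists 17 rose and 32 fell of 80 in WT, with 1 rose and 5 fell of 9 tested (median log2 difference -0.59) for the liver transcription factors and 0 rose and 3 fell of 22 tested (median log2 difference -0.17) for the other positive acute-phase genes. The 49 calls of 80 are 61.2%, where 64.0% of all genes passed. With the correction 4 rose and 18 fell of 80 (27.5%), where 40.1% of 9581 genes passed. Among the liver transcription factors 1 rose and 3 fell with a median of 0.09, and Cebpb, another C/EBP factor, was at 0.11, against -1.92 uncorrected. Among the other positive acute-phase genes 0 rose and 2 fell with a median of -0.15. In Bmal1LKO and CryDKO 0 of the 80 passed between feedings by limma, and 8 and 7 had an unadjusted p under 0.05, as did 10.2% and 5.66% of all genes.

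Among the 5344 other genes that averaged 5 FPKM or more, those whose deviations from their group means were most like those of Hp over the 67 libraries were Ifitm2 (Pearson r = 0.905), Ambp (0.89) and Lrg1 (0.885). Those most like the mean of the fibrinogen chains were Lbp (r = 0.858), Dnajc12 (0.853) and Slc39a1 (0.84). Without the 3 libraries that stood apart these r were 0.871, 0.848 and 0.855 for Hp and 0.793, 0.792 and 0.748 for the fibrinogen chains. Among the members themselves Fga and Fgb were closest (r = 0.979), then Fgb and Fgg (0.939) and Hp and Hpx (0.934). These are descriptions: the genes share libraries and their depth.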

How the data were processed

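Poly(A) RNA of mouse liver was sequenced from stranded libraries, per the labels' protocols. The authors deposited 1 table of FPKM values per gene and library, and STAR, featureCounts, DESeq2 and the build GRCm38 are named in the submitters' processing notes, with no role or order given. Whether reads were counted by strand was not stated there. Steps in low FPKM values gave 9.10 to 36.0 M reads per library, with 84.3 to 88.4% of low values within 0.1 of a whole read, so no count test was run. Here, log2(FPKM + 1) of the 9958 genes that averaged 1 FPKM or more was fitted with limma 3.58.1 in R 4.3.3 over all 67 libraries, with a level, a cosine and a sine of 24 h per group, a trend in the variance and Benjamini-Hochberg adjustment over all genes at 0.05. Fold changes on this scale understate those of low genes. The fit was tested on simulated data. The members and gene lists were chosen with earlier results of these data known. All 10 members are named, at most 2 genes a list and contrast are named by the size of their change among those that passed, and 3 genes each by likeness to Hp and to the fibrinogen mean. Socs3 and Saa1 in single libraries were named after their values were seen. Other settings tried were a smaller pseudocount, all detected genes, 2 other scalings, a GC and length correction on 9581 genes (natural splines with 4 degrees of freedom), library weights, other time terms or groups in the fit, a replicate block, WT libraries of 1 number only, and each library left out. Leaving out 3 libraries of high serum amyloid mRNA, or 2 WT libraries of high summed FPKM, was chosen after seeing the data. Figures were drawn with matplotlib 3.10.9 and Python 3.11.15, and promoter windows came from RefSeq (GRCm38.p6).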

Additional observations from a re-analysis of the deposited data

Results flagged for a closer look

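In 6 groups of 6 or 8 libraries, 60 sets of values were examined for a library set far from the rest, and chance marks about 1 in 20 such sets. The CryDKO time-restricted ZT3 library lay far above the rest of its group for 9 of the 10 genes: Fga at 16790.5, Fgb at 9311, Fgg at 14976, Hp at 24779, Hpx at 36512, Cp at 669, Itih4 at 5662, Crp at 859.5 and Apcs at 5883 FPKM. The CryDKO ad libitum ZT21 library did so for 5 genes, with Fga at 4344, Fgb at 3205, Fgg at 4720.0, Cp at 222 and Apcs at 471 FPKM. The ReverbLDKO time-restricted ZT18 library did so for Cp at 752 and Itih4 at 3612 FPKM.

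The Bmal1LKO time-restricted ZT12 library lay far below its group for Hpx at 4075 and Apcs at 209.8 FPKM. The Bmal1LKO ad libitum ZT8 library lay far above its group for Itih4 at 978 FPKM. The ReverbLDKO ad libitum ZT9 library lay far below its group for Cp at 162 FPKM, and its summed pancreas markers were at 636 FPKM, against a group median of 0.16 FPKM, whose part was not tested. The effect of feeding on Hp differed between the genotypes by the test of the difference itself (limma, adjusted p = 0.0015).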

How the results depend on the processing

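With all libraries, 3 of 10 members passed between feedings in WT and 3 in ReverbLDKO, 1 differed in feeding effect between genotypes, 2 passed for Bmal1LKO, 3 for CryDKO and 9 for ReverbLDKO against WT over both feedings, 13 of 80 rhythms passed and 0 of 40 rhythm differences. Feeding in Bmal1LKO and CryDKO gave 0 in every alternative run. The count for feeding in ReverbLDKO was 6 with median-of-ratios scaling, 7 with library weights, 7 with only the groups compared, 0 with no time terms, 1 without the 3 high serum amyloid libraries and 6 without the 2 WT libraries of high summed FPKM. It ran from 0 (without time-restricted ZT18 or ad libitum ZT24) to 6 (without time-restricted ZT21) when each ReverbLDKO library was left out. It was 7 without CryDKO time-restricted ZT3, which is outside that range. Ranges given here for a mutant against WT leave out only libraries of the 2 genotypes compared. The difference of feeding effects gave 2 with scaling to the same sum, 2 with the GC and length correction, 7 with library weights, 3 without the 3 libraries, 2 without the 2 WT libraries, and 1 to 7 (7 without CryDKO time-restricted ZT3) when each was left out. Feeding in WT gave 1 with the GC and length correction and 0 with WT libraries of number 1 only. Bmal1LKO against WT gave 1 with no filter, 4 with scaling to the same sum, 6 with only the groups compared, 1 with no time terms, 0 and 4 with WT libraries of number 1 or 2 only, 6 without the 3 libraries, and 0 to 4 when each was left out. CryDKO against WT gave 6 with scaling to the same sum, 0 with number 1 only, 5 without the 3 libraries, and 2 to 5 when each was left out (5 without time-restricted ZT3 or ZT6). ReverbLDKO against WT gave 5 with no time terms and 4 with number 1 only. Rhythms gave 7 with no filter, 6 with only the libraries of 1 genotype, 5 with number 2 only, and 8 to 18 when each was left out (8 without CryDKO time-restricted ZT18, 18 without ZT6). Rhythm differences gave 2 with the GC and length correction, 5 with library weights and 0 to 8 when each was left out (8 without CryDKO time-restricted ZT6). The causes of these changes were not tested.

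Among differences that passed with all libraries or in the run named, directions turned in cases that include these 5. With the GC and length correction, feeding in WT gave -0.20 for Cp and -0.029 for Crp, and ReverbLDKO against WT under restriction gave 0.011 for Crp. With WT libraries of number 1 only, feeding in WT gave -0.019 for Cp, and without the 3 libraries CryDKO against WT under restriction gave -0.27 for Crp. Differences that did not pass turned as well when each library was left out. CryDKO against WT under restriction went as low as -0.11 for Fga and Fgb, -0.27 for Hpx and -0.086 for Cp. With all libraries these were 0.25, 0.20, 0.06 and 0.16. Feeding in CryDKO went as low as -0.09 for Fga, Fgb and Fgg, against 0.27, 0.22 and 0.23. The calls for Cp in ReverbLDKO under both feedings, Itih3 in time-restricted ReverbLDKO and Hp in ad libitum ReverbLDKO held in every alternative run.

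With the replicate number of WT as a block, Bmal1LKO against WT gave 1, CryDKO against WT 2, ReverbLDKO against WT 6, feeding in WT 3, the difference of feeding effects 1, rhythms 13 and rhythm differences 0. It ended the calls under restriction for Crp in Bmal1LKO, Itih4 in CryDKO, and Fga, Fgb and Crp in ReverbLDKO (limma, adjusted p = 0.0625 to 0.228). Same-numbered WT libraries of the 2 feedings deviated with r of 0.398, 0.626, 0.609, 0.544 and -0.287 at ZT4, ZT8, ZT16, ZT20 and ZT24. As these r were not all positive, the numbers were not taken as pairs in the main fit. Whether the numbers mark separate preparations is not in the labels. Each time point of a mutant group rests on 1 library, which limits every rhythm, and FPKM values carry no absolute RNA amount per cell.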
